A study of Mus musculus with 32 samples.

Results

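The genes described here are the Ink4 and Cip/Kip inhibitors of cyclin-dependent kinases, taken as listed by name: Cdkn2a, Cdkn2b, Cdkn2c and Cdkn2d of the Ink4 family and Cdkn1a and Cdkn1b of the Cip/Kip family, 6 of 21887 protein-coding genes. For each of 30 libraries the peaks inside the gene and 5 kb on each side were taken. Cdkn2a and Cdkn2b lie next to each other on chromosome 4 and were also treated as a single stretch of 46560 bp (chr4:89269473-89316032, mm10). The value used throughout is the fraction of such a window that lies in peaks, called coverage below.

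The series mapped 3 histone marks by CUT&Tag, in which a transposase bound to an antibody cuts DNA beside the mark, in HoxB8 cells: mouse bone marrow cells immortalised by an estrogen-dependent HoxB8. Each mark had 10 libraries in 4 genotypes. Double cells carried the sgRNA Asxl1 B2 and pMICH-CSF3R-T618I (n = 2), CSF3R T618I cells a non-targeting sgRNA and pMICH-CSF3R-T618I (n = 3), Asxl1 guide cells the sgRNA Asxl1 B2 and pMICH-Empty (n = 3), and control cells the non-targeting sgRNA and pMICH-Empty (n = 2). All 4 genotypes, controls included, had been immortalised with HoxB8, grown with SCF, the ligand of Kit, and kept without estrogen for 48 h. The guide was intended to truncate Asxl1, and a single guide (B2) stands for the mutation. CSF3R T618I is an overexpressed mutant of the G-CSF receptor. The labels do not say whether replicates came from separate cultures, so every p-value below measures the spread between these libraries, which may be technical. A background list came from 2 IgG libraries, merged.

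As background, Polycomb repressive complex 2 writes H3K27me3 and Polycomb repressive complex 1 writes H2AK119ub, both found on silent genes, while the Asxl1 partner Bap1 removes the ubiquitin from H2A. H3K4me1 marks enhancers and the flanks of promoters. The locus holding Cdkn2a and Cdkn2b is a classical Polycomb target: its silencing lets haematopoietic and immortalised cells keep dividing, and its loss is frequent in cancer. Ink4 proteins bind Cdk4 and Cdk6, Cip/Kip proteins bind cyclin-kinase complexes more widely, and the second product of Cdkn2a, Arf, holds back Mdm2, the ubiquitin ligase of p53.

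Libraries differed widely in how much of the genome their peaks covered, at 4.73 to 53.01 Mb for H3K27me3, 11.8 to 39.1 Mb for H2AK119ub and 26.6 to 47.2 Mb for H3K4me1. Among the H3K27me3 libraries, Asxl1 guide replicate 2 stood apart with 53.01 Mb in 45373 peaks, against 4.73 and 12.4 Mb in the other Asxl1 guide libraries and 15.9 and 22.7 Mb in controls. No height, score or read count was used, so depth is unknown and no counting interval can be given. Of 8 granulocyte-monocyte progenitor genes 6 held H3K4me1 in all 10 libraries (Mpo, Elane, Prtn3, Spi1, Cebpa and Cebpe), and H3K27me3 was at 0 in every library over 7 of the 8. The T cell gene Bcl11b and the neuronal genes Neurod1 and Neurog1 held H3K27me3 in 10 of 10 libraries and H3K4me1 in none.

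The promoters on which the results turn are given here, from 250 bp before to 50 bp after each start, 5′ to 3′ on the strand of the gene, from RefSeq on GRCm38.p6, the assembly behind mm10. All 6 genes were matched to 9 promoters of 300 bp. Cdkn2a has 2 starts: the upstream one gives Arf and the downstream one gives p16, the Ink4a product. Capitals mark CG dinucleotides, which read the same on both strands.
Ink4a promoter of Cdkn2a, minus strand, chr4:89282143-89282442: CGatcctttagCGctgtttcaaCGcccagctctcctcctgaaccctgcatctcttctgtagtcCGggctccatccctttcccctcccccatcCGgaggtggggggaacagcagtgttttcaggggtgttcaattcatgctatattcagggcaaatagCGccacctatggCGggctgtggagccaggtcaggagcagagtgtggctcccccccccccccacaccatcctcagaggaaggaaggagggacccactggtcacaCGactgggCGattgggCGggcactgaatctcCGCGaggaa
Arf promoter of Cdkn2a, minus strand, chr4:89294570-89294869: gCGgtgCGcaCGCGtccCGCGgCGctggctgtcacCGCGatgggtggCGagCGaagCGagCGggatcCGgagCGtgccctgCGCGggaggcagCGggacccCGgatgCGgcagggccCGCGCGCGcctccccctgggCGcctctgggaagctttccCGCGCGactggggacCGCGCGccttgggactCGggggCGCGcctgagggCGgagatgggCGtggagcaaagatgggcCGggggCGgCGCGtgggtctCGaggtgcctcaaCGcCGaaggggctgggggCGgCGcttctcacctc
Cdkn2b promoter, minus strand, chr4:89310983-89311282: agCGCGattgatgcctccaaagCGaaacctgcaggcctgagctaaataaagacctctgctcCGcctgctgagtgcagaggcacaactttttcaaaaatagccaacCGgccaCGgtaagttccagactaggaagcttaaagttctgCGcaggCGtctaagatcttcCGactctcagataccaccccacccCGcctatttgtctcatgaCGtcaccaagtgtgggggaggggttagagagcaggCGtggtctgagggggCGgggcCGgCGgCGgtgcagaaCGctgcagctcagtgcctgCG
Cdkn1a downstream promoter, plus strand, chr17:29093519-29093818: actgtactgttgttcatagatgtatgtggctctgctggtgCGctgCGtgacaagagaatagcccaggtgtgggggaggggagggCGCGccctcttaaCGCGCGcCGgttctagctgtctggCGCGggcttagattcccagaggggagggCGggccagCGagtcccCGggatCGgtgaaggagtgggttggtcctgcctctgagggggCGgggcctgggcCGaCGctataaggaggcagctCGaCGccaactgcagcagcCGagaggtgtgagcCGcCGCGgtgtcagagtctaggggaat
The next one is shown because it lies on the same gene and held none of the 3 marks. Its capitals mark the p53 core motif, CATG, any 6 bases and CATG, which also reads the same on both strands.
Cdkn1a upstream promoter, plus strand, chr17:29090729-29091028: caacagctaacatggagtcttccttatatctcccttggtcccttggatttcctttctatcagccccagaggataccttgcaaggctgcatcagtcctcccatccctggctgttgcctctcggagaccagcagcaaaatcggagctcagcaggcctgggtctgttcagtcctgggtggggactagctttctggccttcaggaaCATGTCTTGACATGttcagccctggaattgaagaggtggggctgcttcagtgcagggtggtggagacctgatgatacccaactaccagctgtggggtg

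The Arf promoter held 45 CG dinucleotides, and 1.93% of 32851 promoters of the same length held as many. The Ink4a promoter held 12, the Cdkn2b promoter 18 and the Cdkn1a downstream promoter 23, against a median of 7 over all promoters. The Cdkn1a upstream promoter held 2 CG dinucleotides and 1 p53 core motif, which 0.712% of all promoters held and none of the other 8 promoters of these genes did. At the promoters without any mark, Cdkn1b held 30, Cdkn2d 22, and the upstream and downstream promoters of Cdkn2c 33 and 8.

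Across all genotypes, the 6 genes fell into different chromatin states. Cdkn2a held H3K27me3 in 9 of 10 libraries and H2AK119ub in 10 of 10, and Cdkn2b held H3K27me3 in 5 of 10 and H2AK119ub in 10 of 10. The window of Cdkn2c held a single narrow peak of both Polycomb marks in 10 of 10 libraries each, and no H3K4me1. Cdkn1a held H3K4me1 in 10 of 10 libraries, H2AK119ub in 9 of 10 and H3K27me3 in none. Cdkn2d held H3K4me1 in 2 of 10 libraries and no Polycomb mark, and Cdkn1b had no peak of any mark in the 30 libraries. The IgG peaks covered 0 bp of the stretch and none of the 103 mark peaks there touched one. In the other windows there were 1 or 2 IgG peaks each, of 350 to 1400 bp in all.

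**Figure D1:**
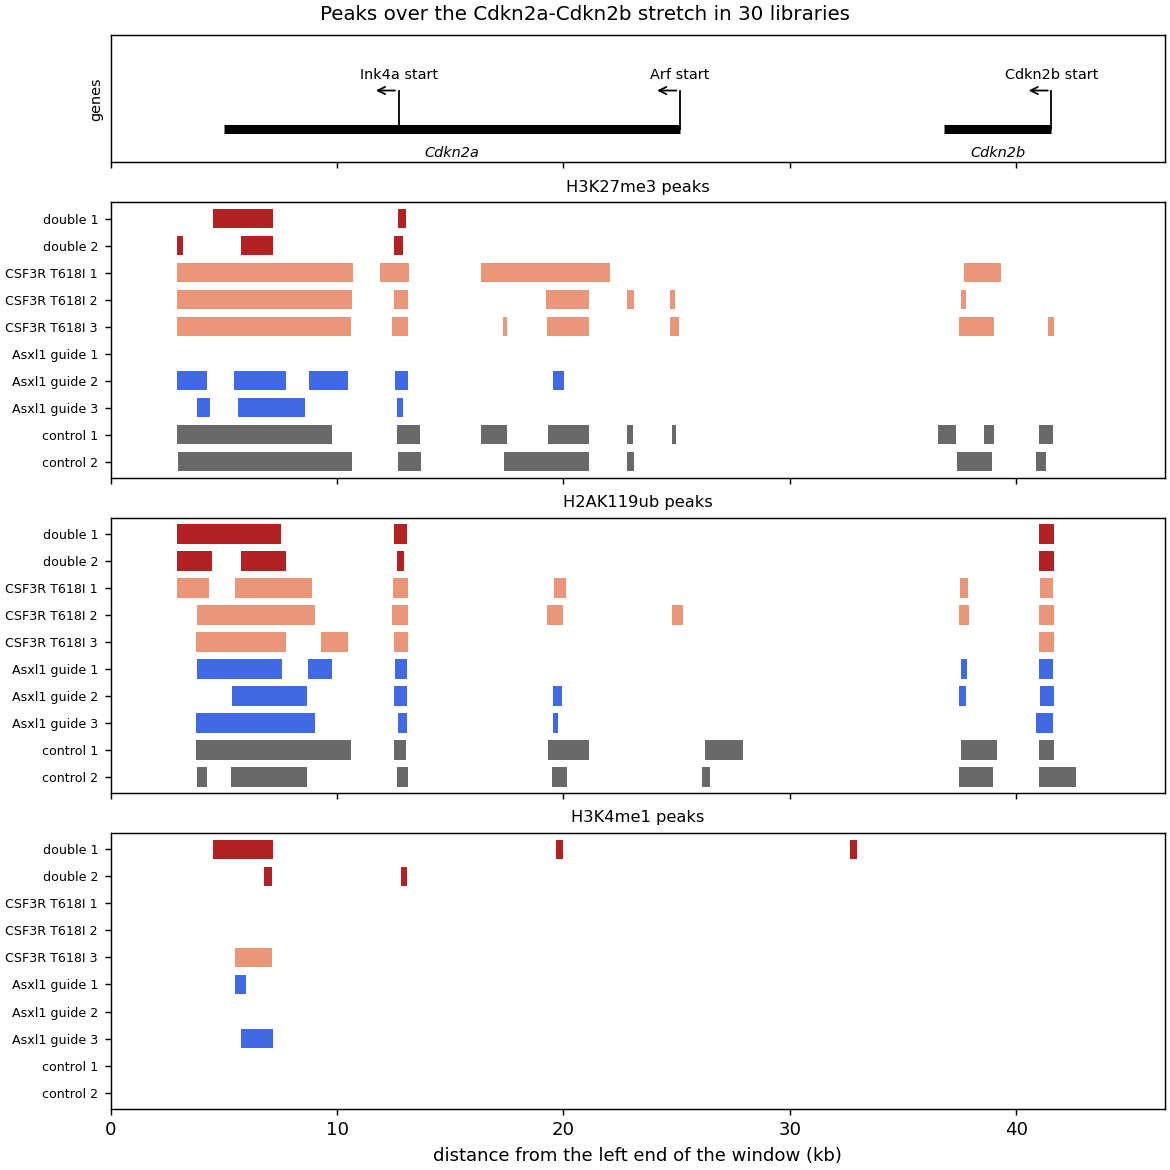
Peaks over the Cdkn2a-Cdkn2b stretch, 1 row per library with its genotype and replicate number, for H3K27me3, H2AK119ub and H3K4me1. The x axis is the distance in kb from the left end of the window, black bars are the genes and arrows their starts and direction. H3K27me3 peaks are short or absent in the 2 double and 3 Asxl1 guide libraries and broad in the 3 CSF3R T618I and 2 control libraries.

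H3K27me3 over the stretch separated the cells with the Asxl1 guide from those without it. Coverage was 0.064 and 0.044 in double cells, against 0.353, 0.235 and 0.272 in CSF3R T618I cells. In Asxl1 guide cells it was 0, 0.137 and 0.082, against 0.282 and 0.318 in controls. Every library with the guide was below every library without it. Of all features, 78.6% had double cells wholly below CSF3R T618I cells and 6.6% had Asxl1 guide cells wholly below controls. The share of features split by the guide over all libraries at once was not computed. Averaged over both backgrounds, the guide difference in coverage was -0.230 (exact 2-sided permutation of the guide label within CSF3R T618I and pMICH-Empty cells, p = 0.01 of 100 arrangements, the smallest they allow; 0.03 after Benjamini-Hochberg adjustment over 6 tests). The CSF3R T618I label gave a mean difference of -0.016 in the same exact permutation test (p = 0.61). Per Mb of covered genome, the stretch held 156 and 144 bp in double cells, 525, 321 and 300 bp in CSF3R T618I cells, 0, 121 and 306 bp in Asxl1 guide cells and 828 and 652 bp in controls, so that 1 Asxl1 guide library reached into the range of the CSF3R T618I cells on this scale. On it the guide difference was -415 bp per Mb (exact permutation p = 0.01).

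**Figure D2:**
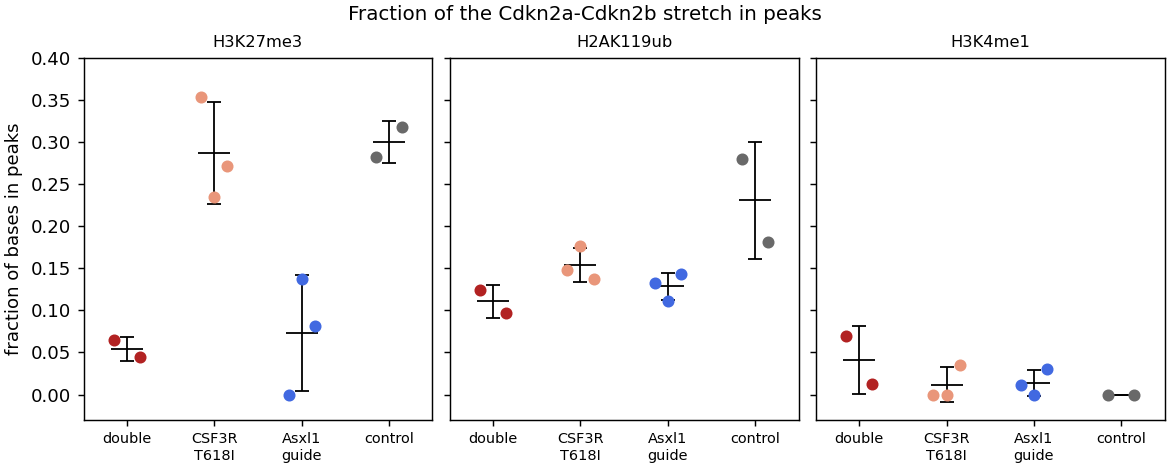
Fraction of the Cdkn2a-Cdkn2b stretch in peaks, by genotype, for the 3 marks. Points are libraries, horizontal bars the mean and whiskers the SD (n = 2 or 3). For H3K27me3 the guide libraries lie between 0 and 0.137 and the others between 0.235 and 0.353.

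A fit across all genes (limma, 3862 features tested for H3K27me3, Benjamini-Hochberg adjustment over all of them, called at an adjusted p under 0.05) gave the comparisons singly. Between double and CSF3R T618I cells, 10.1% of features were called lower, and the median difference of all was -0.090. The stretch was called at -0.232 ± 0.047 (SE, limma adjusted p = 0.0291), with coverage of 0.054 ± 0.014 in double cells (SD, n = 2) and 0.287 ± 0.060 in CSF3R T618I cells (SD, n = 3). Cdkn2a, at 0.0995 and 0.0680 in double cells against 0.491, 0.357 and 0.360 in CSF3R T618I cells, was called too, at -0.319 ± 0.065 (SE, limma adjusted p = 0.0291). The stretch contains Cdkn2a, and in both double libraries all H3K27me3 of the stretch lay in the Cdkn2a window. The 2 calls are therefore not separate. Groups lay apart with double cells lower for 78.6% of features, so the lack of overlap at Cdkn2a is close to the general case in this comparison. Both calls were lost when any 1 of double replicates 1 and 2, CSF3R T618I replicates 2 and 3, Asxl1 guide replicate 3 or either control was left out; for the stretch the difference was then -0.258 to -0.222 with adjusted p = 0.0529 to 0.222.

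Between Asxl1 guide and control cells no feature was called for H3K27me3 (0% of 3862 by limma; 147 had an unadjusted p under 0.05). The stretch differed by -0.227 ± 0.047 (SE, limma adjusted p = 0.849), from means of 0.073 ± 0.069 in Asxl1 guide cells (SD, n = 3) and 0.300 ± 0.025 in controls (SD, n = 2). The size was that of the difference between double and CSF3R T618I cells, while the median of all features was -0.0050. Asxl1 guide libraries lay wholly below controls at the stretch, as they did for 6.6% of features. Without Asxl1 guide replicate 2, the library with 53.01 Mb of peaks, the stretch difference was -0.259 and was called (limma adjusted p = 0.0180). In that setting 312 of 3602 features were called lower. With covered length as a covariate the stretch difference was -0.213 and was called (limma adjusted p = 0.0255). There 116 of 3862 features were called lower and 61 higher. In the other 19 of 21 alternative settings the stretch was not called, while the difference kept its sign. With all 10 libraries 3 of 4 loci tested (Cdkn2a, Cdkn2b and the stretch; Cdkn2c the exception) had an unadjusted p under 0.05. The stretch contains the other loci of the 3, and Cdkn2b was tested only because libraries without the guide held a peak there, so its low p is no support.

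CSF3R T618I and control cells had like H3K27me3 coverage over Cdkn2a, at 0.402 ± 0.077 and 0.3997 ± 0.035 (SD, n = 3 and n = 2, difference 0.0028 ± 0.065, SE, limma adjusted p = 0.983). The median of all features was 0.069 higher in CSF3R T618I cells, and 2.59% of features were called; none of the 4 loci was, nor had any an unadjusted p under 0.05. These 100 calls, all higher in CSF3R T618I cells, depended on single libraries: they were 0 without either control and with the replicate block, 1 to 7 without CSF3R T618I replicate 2 or 3, Asxl1 guide replicate 3 or either double library, and 1071 higher without Asxl1 guide replicate 2. Between double and Asxl1 guide cells the stretch differed by -0.019 ± 0.047 (SE, limma adjusted p = 1), with 0% of features called and 77 at an unadjusted p under 0.05. The interaction of guide and CSF3R T618I, which tests whether the guide effect differs between backgrounds, was called for 0% of features (414 at an unadjusted p under 0.05) and was -0.0054 ± 0.067 for the stretch (SE, limma adjusted p = 0.956).

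Cdkn2b, which encodes p15, held H3K27me3 only in cells without the guide: 0 in both double libraries against 1650, 200 and 1800 bp in CSF3R T618I cells, and 0 in all 3 Asxl1 guide libraries against 1850 and 2000 bp in controls. No library with the guide had a peak there and every library without it did. Of all features, 78.6% had double cells wholly below CSF3R T618I cells and 6.6% had Asxl1 guide cells wholly below controls. The differences were -0.083 ± 0.033 for double against CSF3R T618I cells and -0.131 ± 0.033 for Asxl1 guide against control cells (SE, limma adjusted p = 0.116 and 0.991), and neither was called.

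Within the stretch, the peaks of both Polycomb marks in all libraries were joined into 8 segments, whose differences between genotypes were not tested. The segments were thus drawn from the same peaks whose bases are counted in them. The longest, of 7800 bp, runs from beyond the 3′ end of Cdkn2a into the gene (chr4:89272401-89280200). Its H3K27me3 averaged 2150 bp in double cells and 7750 bp in CSF3R T618I cells, and 2950 bp in Asxl1 guide cells and 7275 bp in controls. A single peak filled most of it in every library without the guide: the longest H3K27me3 peak was 7800, 7750 and 7700 bp in CSF3R T618I cells and 6850 and 7700 bp in controls. The segment has the start and end of the peak in CSF3R T618I replicate 1, so that library fills it by construction. With the guide the longest peak was 2650 and 1400 bp in double cells and 0, 2300 and 2950 bp in Asxl1 guide cells, so the domain was shorter, broken up or absent in each of them. H3K27me3 peaks were also narrower genome-wide in every library with the guide: their mean width was 1134 and 766 bp in double cells against 2051, 1797 and 1865 bp in CSF3R T618I cells, and 780, 1168 and 972 bp in Asxl1 guide cells against 1563 and 1590 bp in controls. The part of this general narrowing in the widths at the locus was not tested.

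The segment between the Ink4a and Arf promoters (5700 bp, chr4:89285851-89291550) held H3K27me3 in no double library and in all 3 CSF3R T618I libraries, with means of 0 and 3217 bp. In Asxl1 guide cells 1 of 3 libraries had a peak there, with a mean of 167 bp, against 2 of 2 controls with 3350 bp. The segment has the start and end of the H3K27me3 peak of CSF3R T618I replicate 1. It was therefore drawn from a group in which it is then high, and these values are no support for a difference. Near the 3′ end of Cdkn2b the H3K27me3 means were 0 bp in double cells, 1133 bp in CSF3R T618I cells, 0 bp in Asxl1 guide cells and 1400 bp in controls. The bounds of that segment likewise come from H3K27me3 peaks of libraries without the guide, control replicate 1 and CSF3R T618I replicate 1. The Ink4a promoter segment held H3K27me3 in all libraries but Asxl1 guide replicate 1, with means of 375 bp in double cells, 867 bp in CSF3R T618I cells, 283 bp in Asxl1 guide cells and 1050 bp in controls.

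**Figure D3:**
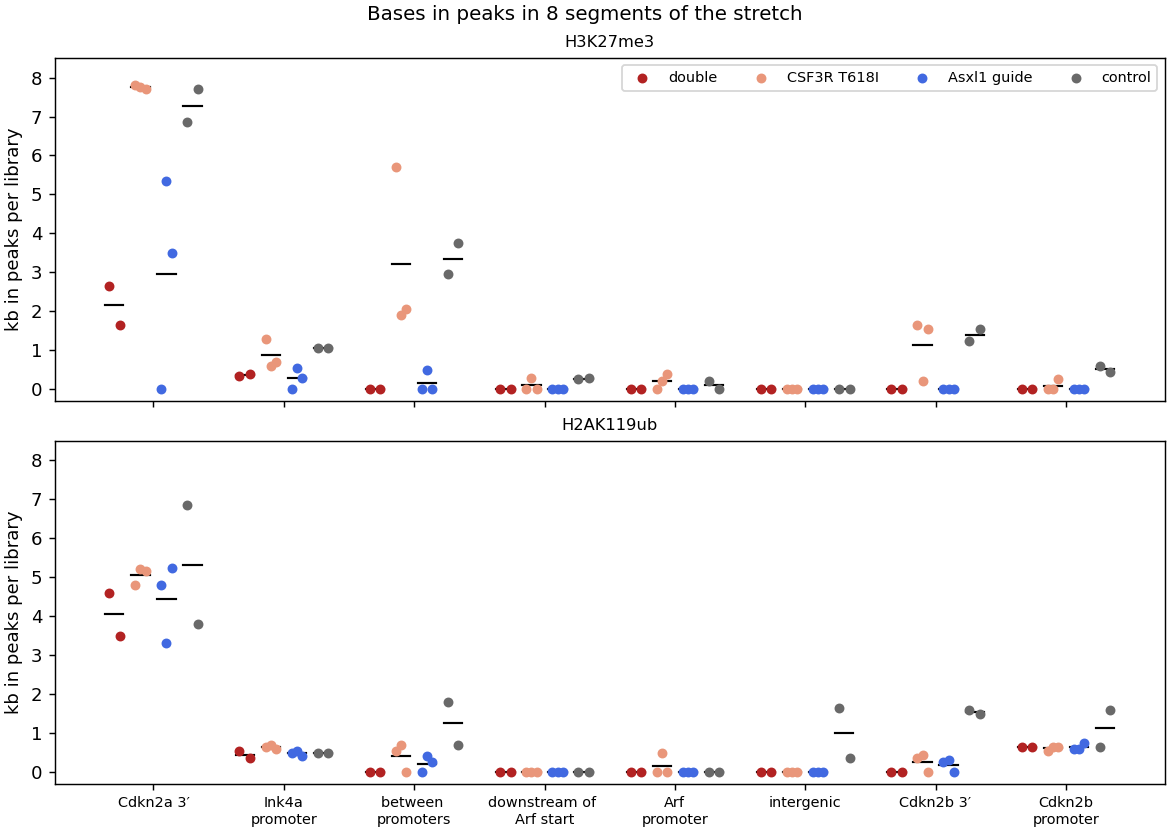
Bases in peaks (kb per library) in 8 segments of the Cdkn2a-Cdkn2b stretch, in the order of the map from left to right, for H3K27me3 and H2AK119ub. Points are libraries coloured by genotype and black bars are means. In the Cdkn2a 3′ segment H3K27me3 averages 2150 and 2950 bp in double and Asxl1 guide cells and 7750 and 7275 bp in CSF3R T618I and control cells, while H2AK119ub averages 4050 to 5325 bp in all 4 genotypes.

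At the promoters themselves the 2 starts of Cdkn2a differed. The Ink4a promoter printed above was in an H3K27me3 peak in 9 of 10 libraries, the exception being Asxl1 guide replicate 1, which had the fewest H3K27me3 peaks (6071). It was in an H2AK119ub peak in 10 of 10 libraries, with 292 to 300 of its 300 bp covered. The CG-rich Arf promoter was touched by H3K27me3 in 1 of 10 libraries, over 31 bp in CSF3R T618I replicate 3, and by H2AK119ub in 1 of 10, over 181 bp in CSF3R T618I replicate 2. The Cdkn2b promoter held H2AK119ub in 10 of 10 libraries and H3K27me3 in 2 of 10, over 168 bp in CSF3R T618I replicate 3 and 118 bp in control replicate 1. In the median library 10.0% of 32851 promoters were touched by H3K27me3, 8.5% by H2AK119ub and 3.44% by H3K4me1.

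H2AK119ub over the stretch was also lower with the guide, by less. Coverage was 0.125 and 0.097 in double cells, against 0.148, 0.176 and 0.137 in CSF3R T618I cells. It was 0.132, 0.111 and 0.143 in Asxl1 guide cells, against 0.280 and 0.181 in controls. Guide libraries lay below the others within each background, and the 2 controls were above all 8 other libraries. Of all features, 53.6% had Asxl1 guide cells wholly below controls and 23.4% had double cells wholly below CSF3R T618I cells. The share with controls above all other libraries was not computed. The mean guide difference was -0.073 (exact 2-sided permutation, p = 0.01 of 100 arrangements, adjusted 0.03 over 6 tests), and that of CSF3R T618I -0.047 (exact permutation p = 0.04, adjusted 0.08). As bp per Mb of covered genome the guide difference in H2AK119ub was -102 (exact permutation p = 0.09, adjusted 0.168) and no longer passed, while that of CSF3R T618I was -244 (exact permutation p = 0.01, adjusted 0.03).

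Singly, H2AK119ub was tested at 4271 features. Between Asxl1 guide and control cells 6.16% were called lower, with a median of all at -0.040, and groups lay apart with Asxl1 guide cells lower for 53.6%. Cdkn2b was called: 850, 900 and 750 bp in Asxl1 guide cells against 2250 and 3100 bp in controls, a difference in coverage of -0.125 ± 0.021 (SE, limma adjusted p = 0.0213). The call was lost without Asxl1 guide replicate 1, 2 or 3 (adjusted p = 0.0809, 0.0710 and 0.0574) and without control replicate 2 (adjusted p = 0.115), the difference staying between -0.127 and -0.096 in these 4. It was also lost with covered length as a covariate (limma adjusted p = 0.0743), with the replicate block (0.0613), with no filter (0.0848) and by any overlap, where all libraries hold a peak (1). The stretch differed by -0.102 ± 0.030 (SE, limma adjusted p = 0.0835) and Cdkn2a by -0.097 ± 0.048 (SE, limma adjusted p = 0.252), and neither was called.

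Cdkn2b was not called between CSF3R T618I and control cells for H2AK119ub, at 900, 1100 and 650 bp against 2250 and 3100 bp, a coverage difference of -0.122 ± 0.021 (SE, limma adjusted p = 0.0623) where 0.421% of features were called. Without CSF3R T618I replicate 1 it was called (limma adjusted p = 0.0333). Groups lay apart with CSF3R T618I cells lower for 5.57% of features, among them Cdkn2b and the stretch. Double and CSF3R T618I cells had 650 bp in both libraries and 883 ± 225 bp (SD, n = 3) over Cdkn2b. None of the 5 loci was called between double and CSF3R T618I cells (8.92% of features were), where groups lay apart with double cells lower for 23.4% of features, nor between double and Asxl1 guide cells (9.41%), and in both comparisons 0 of 5 loci had an unadjusted p under 0.05 by limma. The interaction was called for 0% of features (456 at an unadjusted p under 0.05) and was 0.109 ± 0.030 for Cdkn2b (SE, limma adjusted p = 0.273).

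By segment, both controls stood above the other genotypes in H2AK119ub at the Cdkn2b 3′ and intergenic segments. The Cdkn2b promoter segment averaged 650 bp in double, 617 bp in CSF3R T618I, 650 bp in Asxl1 guide and 1125 bp in control cells. The Cdkn2b 3′ segment averaged 0, 267, 183 and 1550 bp in the same 4 genotypes, the 2 controls at 1500 and 1600 bp lying above the highest other library at 450 bp. An intergenic segment upstream of the Arf start (chr4:89295601-89297400) held H2AK119ub in both controls and in none of the other 8 libraries. That segment was drawn from the peaks of those controls alone. Differences by segment were not tested.

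The 2 Polycomb marks overlapped. Pooling the libraries of a genotype, H3K27me3 covered 3400 bp of the stretch in double cells, 17600 bp in CSF3R T618I cells, 7350 bp in Asxl1 guide cells and 17300 bp in controls. Of these bases 100% lay inside H2AK119ub of the same genotype in double cells, 56.25% in CSF3R T618I cells, 76.9% in Asxl1 guide cells and 65.3% in controls. The share of H2AK119ub bases inside H3K27me3 was 56.7% in double cells, 94.7% in CSF3R T618I cells, 69.8% in Asxl1 guide cells and 78.7% in controls. These pooled shares rest on 2 or 3 libraries per genotype and were not tested.

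H3K4me1 was scarce on the stretch. It covered 3250 and 600 bp in double cells, 0, 0 and 1650 bp in CSF3R T618I cells, 500, 0 and 1400 bp in Asxl1 guide cells and 0 bp in both controls. Genotypes overlapped, and the mean guide difference of 0.022 in coverage did not pass (exact 2-sided permutation p = 0.15, adjusted 0.225), nor did that of CSF3R T618I, 0.020 (exact permutation p = 0.2, adjusted 0.24). All of these bases lay where at least 1 library had H3K27me3, except 300 bp in double replicate 1. One H3K4me1 peak of double replicate 1, of 2650 bp, had exactly the start and end of an H3K27me3 peak in the H3K27me3 library of the same genotype and number; 9 of its 21185 H3K4me1 peaks genome-wide did so. The cause of the match was not tested.

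Cdkn1a, which encodes p21 and is induced by p53, had H3K4me1 over its 3′ part and H2AK119ub at its downstream promoter. H3K4me1 covered 3600 and 3200 bp in double cells, 3950, 3200 and 3700 bp in CSF3R T618I cells, 3100, 2250 and 3300 bp in Asxl1 guide cells and 3200 and 3600 bp in controls. The ranges of all 4 genotypes overlapped, between 3200 and 3300 bp. No H3K4me1 difference at Cdkn1a was called by limma, the largest in size being -0.026 ± 0.020 in coverage for Asxl1 guide against control cells and 0.026 ± 0.020 for double against Asxl1 guide cells (SE, adjusted p = 0.942 and 0.404). Background calls for H3K4me1, over 3988 features, were 0.0502% for Asxl1 guide against control cells, 9.28% for CSF3R T618I against control cells, 10.6% for double against CSF3R T618I cells, 17.8% for double against Asxl1 guide cells and 0.853% for the interaction; 0 of the 2 members tested, Cdkn2a and Cdkn1a, had an unadjusted p under 0.05 in any of them.

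**Figure D4:**
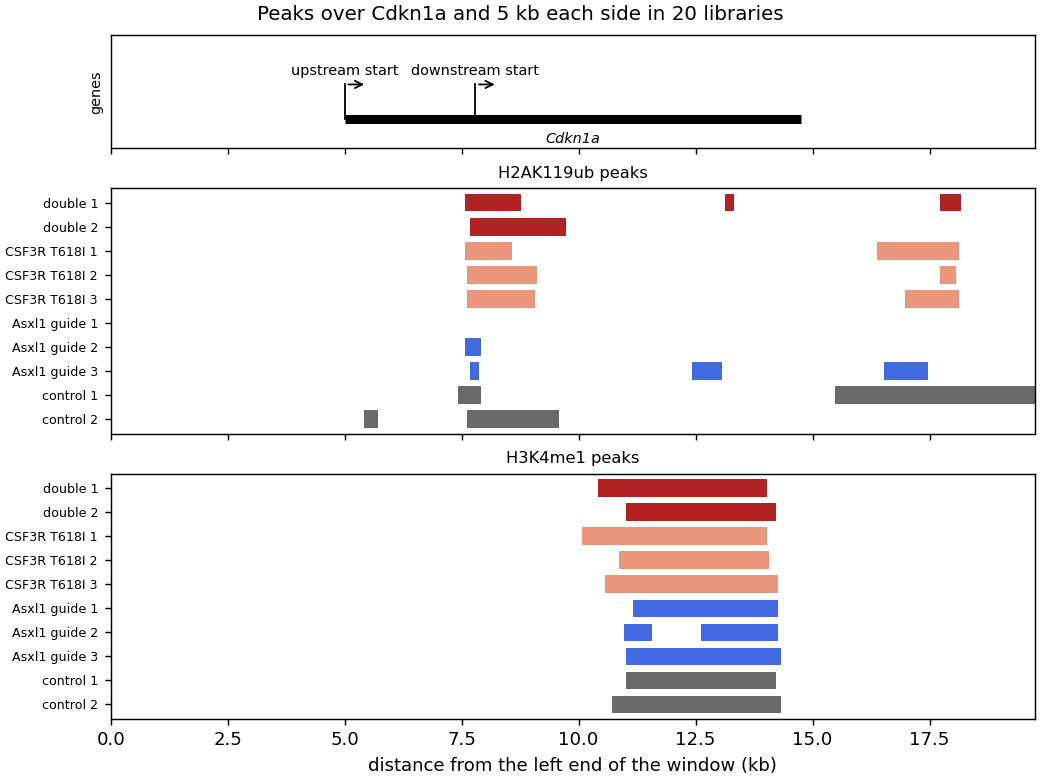
H2AK119ub and H3K4me1 peaks over Cdkn1a and 5 kb each side, 1 row per library with its genotype and replicate number; H3K27me3 had none. The x axis is the distance in kb from the left end of the window. H2AK119ub touches the downstream promoter in 9 of 10 libraries, and H3K4me1 covers 2250 to 3950 bp of the 3′ part in 10 of 10.

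H2AK119ub over Cdkn1a was 1850 and 2050 bp in double cells, 2750, 1850 and 2600 bp in CSF3R T618I cells, 0, 350 and 1800 bp in Asxl1 guide cells and 4772 and 2250 bp in controls. All Asxl1 guide libraries were below both controls, as they were for 53.6% of features, with a difference in coverage of -0.142 ± 0.041 that was not called (SE, limma adjusted p = 0.0782). A peak of 7200 bp in control replicate 1, at the right edge of the window, touched an IgG peak, and without peaks that touch IgG peaks the difference was -0.033 (limma adjusted p = 0.612). The downstream promoter, printed above, was covered over 168 to 300 bp in 9 of 10 libraries, all but Asxl1 guide replicate 1. The upstream promoter with the p53 core motif was covered in none.

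Cdkn2c, which encodes p18, showed a fixed Polycomb peak outside the gene. It lay at the start of the long non-coding RNA gene 9630013D21Rik, inside the 5 kb flank beyond the 3′ end of Cdkn2c, and reached the promoter of that gene in 9 of 10 libraries for H3K27me3 and 10 of 10 for H2AK119ub. Both promoters of Cdkn2c were free of all 3 marks. The H3K27me3 peak was 950 and 850 bp wide in double cells, 1000 bp in each of the 3 CSF3R T618I libraries, 900 bp in each of the 3 Asxl1 guide libraries and 600 and 900 bp in controls. The H2AK119ub peak was 900 to 1100 bp wide in 9 libraries and 2150 bp in Asxl1 guide replicate 1, the library with the least covered genome for that mark (11.8 Mb). No Cdkn2c difference was called for either mark; for H3K27me3 the difference was -0.0063 ± 0.019 between double and CSF3R T618I cells and 0.0094 ± 0.019 between Asxl1 guide and control cells (SE, limma adjusted p = 0.789 and 1).

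Cdkn2d, which encodes p19 of the Ink4 family, had H3K4me1 in CSF3R T618I replicate 3 (1000 bp) and Asxl1 guide replicate 3 (250 bp) and in no other library, at the neighbouring gene Kri1, whose end lies 490 bp away. One of these 2 peaks touched an IgG peak. Cdkn1b, which encodes p27, had no peak of any mark, and neither gene met the minimum for testing.

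The minimum for testing, coverage of at least 0.05 in at least 2 libraries of a mark, was met by 3 of 6 genes for H3K27me3 (Cdkn2a, Cdkn2b and Cdkn2c), by 4 of 6 for H2AK119ub (the same with Cdkn1a) and by 2 of 6 for H3K4me1 (Cdkn2a and Cdkn1a). At H3K27me3 Cdkn2b met it only through libraries without the guide, all 5 guide libraries being at 0. At H3K4me1 Cdkn2a met it through double replicate 1 and CSF3R T618I replicate 3 alone.

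The nearest protein-coding genes on either side of the stretch differed in H3K27me3. Mtap, an enzyme of methionine salvage 93383 bp to the left, had none in any library. Dmrta1, a gene of the Dmrt transcription factor family 377166 bp to the right, held it in 10 of 10 libraries, at 0.071 ± 0.0064 in double cells (SD, n = 2), 0.162 ± 0.052 in CSF3R T618I cells (SD, n = 3), 0.112 ± 0.043 in Asxl1 guide cells (SD, n = 3) and 0.101 ± 0.023 in controls (SD, n = 2). Its differences were -0.091 ± 0.037 between double and CSF3R T618I cells and 0.011 ± 0.037 between Asxl1 guide and control cells (SE, limma adjusted p = 0.117 and 1).

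Genes whose H3K27me3 coverage followed the stretch most closely over the 10 libraries, of 3859 compared by Pearson correlation, were Pou4f1 (r = 0.969), Hoxa9 (0.961), Ptch1 (0.958), Olig2 (0.951) and Gkap1 (0.951). Hoxa9, a homeobox gene of haematopoietic progenitors, averaged 0.287 in double cells, 0.912 in CSF3R T618I cells, 0.426 in Asxl1 guide cells and 1 in controls. For H2AK119ub the closest of 4266 were Camta2 (r = 0.965), Cdc6 (0.947), Dusp9 (0.940), Cd74 (0.935) and Tmem238 (0.915), and Cdc6, which loads the replicative helicase, averaged 0.0054, 0.075, 0.035 and 0.197 in double, CSF3R T618I, Asxl1 guide and control cells. These were picked as the highest values and the points share their libraries; the stretch itself correlated with the log2 covered length of the library at 0.600 for H3K27me3 and 0.086 for H2AK119ub.

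A list of 23 targets and partners of the inhibitors held kinases, cyclins, Rb and E2F proteins and p53 regulators. It also held Skp2, Cks1b, Cdkn3 and Cdkn1c, itself a Cip/Kip gene. Of the 23, 4 were tested for H3K27me3, 6 for H2AK119ub and 10 for H3K4me1. None was called for H3K27me3 in any comparison. The list's median difference was -0.047 between double and CSF3R T618I cells, against -0.090 for all features. Between Asxl1 guide and control cells it was -0.0038, against -0.0050. Cdkn1c, which enters these medians, averaged 0.145 ± 0.183 in double cells (SD, n = 2) and 0.767 ± 0.086 in CSF3R T618I cells (SD, n = 3). Its means were 0.233 in Asxl1 guide cells and 0.132 in controls. The Cdkn1c difference between double and CSF3R T618I cells was -0.621 ± 0.170 (SE, limma adjusted p = 0.0538). For H2AK119ub 1 of 6 was called in double against Asxl1 guide cells, where 9.41% of all features were: Ccnd2, the cyclin D2 gene, was higher in double than in Asxl1 guide cells, at 0.299 ± 0.098 (SD, n = 2) and 0.123 ± 0.014 (SD, n = 3), limma adjusted p = 0.0244. The list's median difference there was 0.093, against 0.045 for all features. For H3K4me1 E2f1, a transcription factor that Rb restrains, was higher in CSF3R T618I than in control cells, at 0.184 ± 0.016 (SD, n = 3) and 0.055 ± 0.026 (SD, n = 2), limma adjusted p = 0.0170, as 1 of 10 called where 9.28% of all features were. It was lower in double than in CSF3R T618I cells, at 0.035 ± 0.019 (SD, n = 2) and 0.184 ± 0.016 (SD, n = 3), limma adjusted p = 0.0111. Cdk6, an Ink4 target, was lower in H3K4me1 in double than in CSF3R T618I cells, at 0.278 ± 0.074 (SD, n = 2) and 0.422 ± 0.027 (SD, n = 3), limma adjusted p = 0.0454. These made 2 of 10 called in double against CSF3R T618I cells, where 10.6% of all features were. For H3K4me1 the list's median was 0.015, against 0.010 for all features, between CSF3R T618I and control cells, and -0.026, against -0.025, between double and CSF3R T618I cells. The E2f1 and Cdk6 comparisons share the CSF3R T618I libraries. Calls in this list come from the fit without a replicate block and were not followed with single libraries left out.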

How the data were processed

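The authors deposited a peak list per library and a list from 2 merged IgG libraries: peak positions in bp on mm10, a unit of kind other, with no score or count. Per the submitters' processing notes, Bowtie2 2.4.1 and deepTools 3.5 were used, and the peak caller is not given in the sources used here. Peaks are at least 200 bp wide. Here, coverage was computed for 21887 protein-coding genes (GRCm38.p6) with 5 kb each side (Python 3.11.15, numpy 2.4.6) and fitted with limma 3.58.1 in R 4.3.3, 1 mean per genotype, over all features of a mark with coverage of at least 0.05 in at least 2 libraries, 2-sided, with Benjamini-Hochberg adjustment. The stretch, 1 added feature, was also tested by exact permutation. Scripts were tested on simulated data. Promoters came from RefSeq. The text names the 6 genes and, of their nearest protein-coding neighbours, only those of the stretch and Kri1. It also names called genes of the target list and at most 4 others per mark by mean coverage. The 5 genes most like the stretch per Polycomb mark are named too. Members, lists and rules were chosen with earlier results of these data known. Alternatives were 2 kb flanks, a 10 kb window at the gene end, the stretch without flanks, any overlap, log2 bp (pseudocount 500 bp), share of covered length, removal of peaks under 400 bp or over IgG, no filter or one of 0.2, a covered-length covariate, a variance trend, a replicate block, and each library left out.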

Additional observations from a re-analysis of the deposited data

Results flagged for a closer look

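At Cdkn2c the H3K27me3 difference of the guide pointed in opposite directions in the 2 backgrounds, -0.0063 between double and CSF3R T618I cells and 0.0094 between Asxl1 guide and control cells, a gap of -0.016 in coverage. No test of this gap passed (limma interaction, adjusted p = 0.704), and the peak behind it is 600 to 1000 bp wide in all 10 libraries.

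At Cdkn1a the H2AK119ub difference of CSF3R T618I was 0.062 between double and Asxl1 guide cells and -0.056 between CSF3R T618I and control cells, a gap of 0.119 in coverage. The gap did not pass either (limma interaction, adjusted p = 0.507), and the 7200 bp peak of control replicate 1 that touches an IgG peak enters it.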

How the results depend on the processing

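Leaving out each library in turn kept the sign of these permutation differences of the stretch: the guide difference was -0.246 to -0.212 for H3K27me3 and -0.0975 to -0.0481 for H2AK119ub, and that of CSF3R T618I -0.0721 to -0.0227 for H2AK119ub. For H3K27me3 the CSF3R T618I difference, which did not pass, went to 0 without Asxl1 guide replicate 2. With 1 library fewer there are at most 60 arrangements, so an adjusted p under 0.05 needs at least 3 of the 6 tests at the smallest p, and the calls of the guide differences were lost by that construction in all but 1 of these repeats. Without flanks the CSF3R T618I difference in H2AK119ub was -0.0739 and passed. As a share of covered length the H2AK119ub guide difference (-102 bp per Mb) was lost and that of CSF3R T618I (-244 bp per Mb) passed. The number of loci called moved as follows. For H3K27me3 between double and CSF3R T618I cells (2 as reported) it was 1 by any overlap, 0 on the log2 scale, 0 with no filter and 0 to 2 without 1 library; between Asxl1 guide and control cells (0 as reported) it was 1 by any overlap, 2 with the covariate and 0 to 2 without 1 library. For H2AK119ub between Asxl1 guide and control cells (1 as reported) it was 2 on the log2 scale, 0 by any overlap, with no filter, with the 0.2 filter and with the covariate, and 0 to 1 without 1 library; between CSF3R T618I and control cells (0 as reported) it was 1 with 2 kb flanks and 0 to 1 without 1 library. Counts over all features moved too: for H3K27me3 between double and CSF3R T618I cells 390 were lower as reported, 831 with the covariate, 54 with the replicate block, 0 without either double library, 48 without CSF3R T618I replicate 3, 68 without its replicate 2, 148 without Asxl1 guide replicate 3, 182 without either control, 740 without Asxl1 guide replicate 1 and 2166 without its replicate 2; between Asxl1 guide and control cells 0 as reported, 116 with the covariate, 312 without Asxl1 guide replicate 2 and 0 without any other 1 library; for H2AK119ub between Asxl1 guide and control cells 263 as reported, 844 on the log2 scale, 36 with no filter, 31 with the covariate, 74 with the block and 19 (without control replicate 2) to 433 (without CSF3R T618I replicate 1) without 1 library. Any overlap gives only 0 or 1 per library. For H3K27me3 the locus it called, in double against CSF3R T618I and in Asxl1 guide against control cells, was Cdkn2b, with no spread within groups. Cdkn2b was tested only because libraries without the guide held a peak there, so these calls are no support. The stretch and Cdkn2a were not called by any overlap. Except where fewer arrangements, samples or tested features bear on it, the cause was not tested. Where 1 library was left in a genotype it was assumed to vary like the others. Deviations of same-numbered libraries correlated at -0.217 to 0.116 for H2AK119ub (median 0.0268), -0.444 to 0.385 for H3K27me3 (median -0.00431) and -0.0963 to 0.412 for H3K4me1 (median 0.208, against -0.162 for different numbers); not every pair was above 0.1 for any mark, so the numbers were not taken as pairing; with a replicate block 0 loci were called for H3K27me3 between double and CSF3R T618I cells and 0 for H2AK119ub between Asxl1 guide and control cells.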
